A study of Mus musculus with 26 samples.

Results

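The genes described here are 41 genes of DNA replication, taken by symbol from the rows of the deposited tables: Mcm2 to Mcm7, Mcm10, Cdc6, Cdt1, Cdc45, Gins1 to Gins4, Orc1, Orc2, Orc6, the polymerase and primase subunits Pola1, Pola2, Pold1, Pold2, Pole, Pole2, Prim1 and Prim2, the clamp Pcna with its loader Rfc1 to Rfc5, Rpa1, Rpa2, Fen1, Lig1, Rrm1, Rrm2, Tyms, Ccne1, Ccne2 and E2f1. All 41 were found among the 20430 genes of the RNA tables and the 19941 genes of the ribosome footprint tables, and all 41 passed the filter on low counts in every comparison. The cells were NIH3T3, an immortalised line of mouse embryonic fibroblasts, under stress. Polyadenylated RNA was sequenced after heat at 44 °C for 2 h, after heat at 42 °C for 8 h and in a control for heat, and after hydrogen peroxide (H2O2, an oxidant) for 2 h or 7 h, potassium chloride (KCl, which raises the osmolarity of the medium) for 2 h or 7 h and in a control that the H2O2 and KCl cells shared. Ribosome-protected footprints, the stretches of mRNA covered by translating ribosomes, were sequenced for the H2O2, KCl and shared control groups. Each group held 2 libraries, 16 of RNA and 10 of footprints. The labels number them without saying whether they came from separate cultures, so p-values measure the spread between these libraries, which may be technical. No concentration of H2O2 or KCl was available.

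Replication starts at origins, which the origin recognition complex (Orc subunits) marks and onto which Cdc6 and Cdt1 load the Mcm2 to Mcm7 helicase in G1. In S phase Mcm10, Cdc45 and the GINS complex turn that helicase on, primase and DNA polymerases alpha, delta and epsilon copy the strands, the clamp and its loader hold the polymerases on DNA, and Fen1 and Lig1 finish the lagging strand. Many of these genes are transcribed in late G1 under E2F factors, which cyclin E activity helps to release from RB. NIH3T3 cells grow asynchronously unless arrested, so that transcripts of a bulk culture also depend on how many cells are in each phase. In bulk RNA, fewer cells in S phase and less RNA per cell cannot be told apart.

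Because E2F factors are known regulators of this group, the promoter letters are shown first, for 5 members with a match and for Rrm2, which changed most after 7 h of H2O2. RefSeq promoters (assembly GRCm38.p6, 250 bases before to 50 bases after the annotated start) matched 33 of the 41 genes. Each was searched on both strands for TTTCCCGC, TTTCGCGC, TTTGCCGC and TTTGGCGC, E2F-type sites whose matches may overlap, and separately for CCAAT. The E2F-type letters were found in 13 of 33 members (39.4%) and in 704 of 27025 genes with a promoter in the table (2.6%), and CCAAT in 21 of 33 members (63.6%) and in 41.1% of all genes. The 13 members were Cdc6, Cdt1, Gins3, Lig1, Mcm3, Mcm5, Mcm6, Mcm7, Orc1, Pola1, Pold1, Pole2 and Rfc3. Each line below gives a window 5′ to 3′ on the gene's strand, with the E2F-type matches in capitals and, for Rrm2, whose promoter held no E2F-type match, CCAAT in capitals. The windows are Orc1 chr4:108579416-108579445 (plus strand), Cdc6 chr11:98908002-98908031 (plus), Mcm5 chr8:75109288-75109387 (plus), Mcm6 chr1:128359725-128359824 (minus), Gins3 chr8:95633446-95633545 (plus) and Rrm2 chr12:24708129-24708228 (plus). The promoters of Mcm10 and Ccne1, which also changed much, held no E2F-type match. The windows of Orc1 and Cdc6 lie inside a longer model of the same gene and are kept to 30 bases.
Orc1: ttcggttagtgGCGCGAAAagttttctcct
Cdc6: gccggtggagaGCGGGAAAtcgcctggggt
Mcm5: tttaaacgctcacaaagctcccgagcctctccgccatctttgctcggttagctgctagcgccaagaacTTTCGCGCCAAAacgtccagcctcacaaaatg
Mcm6: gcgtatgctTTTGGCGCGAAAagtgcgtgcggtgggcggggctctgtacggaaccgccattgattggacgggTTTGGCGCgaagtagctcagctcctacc
Gins3: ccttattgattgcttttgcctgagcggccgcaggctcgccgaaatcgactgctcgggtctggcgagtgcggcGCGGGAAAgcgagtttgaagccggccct
Rrm2: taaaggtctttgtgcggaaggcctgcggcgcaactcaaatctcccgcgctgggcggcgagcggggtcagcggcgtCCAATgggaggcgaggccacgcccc
A match is a description of the letters and not of binding.

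RNA libraries held 24441877 to 45244430 counts and footprint libraries 1460751 to 5168537. Replicates correlated at 0.994 to 0.996 in RNA and at 0.957 to 0.978 in footprints (Pearson's r over genes of log2 values, genes not being independent), and no library repeated another. The 8 fibroblast markers all exceeded 1 TPM, the transcript abundance per length that sums to the same total in every library, in each RNA library, with a summed level of 4147 to 11276 TPM, against 9.01 to 29.0 TPM for 6 epithelial markers, 0 to 1.36 TPM for 5 leukocyte markers (Cd3e and Adgre1 at 0 throughout) and 0.42 to 3.37 TPM for 4 endothelial markers. Cdkn2a, the Ink4a and Arf locus that NIH3T3 cells are commonly described as lacking, was read at 7150 to 19608 counts in every RNA library, which goes against that description of the line, and the source of those reads was not tested. The 41 genes took 0.49 to 0.68% of RNA counts and 0.60 to 0.81% of footprint counts. On the per-length TPM scale the clamp Pcna stood highest in the shared H2O2 and KCl control (799.7 ± 20.9 TPM, SD, n = 2), followed by Mcm7 (330 ± 7.06 TPM) and Mcm5 (248 ± 8.80 TPM). The lowest levels were those of Gins3, a GINS subunit (18.6 ± 0.523 TPM), Orc1, the largest Orc subunit (22.2 ± 1.46 TPM), and Ccne1, cyclin E1 (34.7 ± 1.51 TPM). Reads of Pcna and Tyms may be shared with processed copies of these genes elsewhere in the genome, so their levels are uncertain to that extent.

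Each stress changed the replication genes unevenly. A member is called higher or lower here where edgeR's quasi-likelihood test gave a Benjamini-Hochberg adjusted p below 0.05 over all genes tested, and levels are library-size-scaled counts (CPM) with TMM factors, a normalisation to the bulk of genes. Where the libraries of 2 groups are said to lie apart, this describes the values printed. The share of all genes whose groups lie apart was not counted. The origin-loading genes, which act before S phase, were mostly higher after 44 °C heat and after 7 h of H2O2, while the clamp loader and cyclin E genes were lower after 7 h of KCl. Orc1 was called higher under all 6 treatments, and Mcm10 and Orc6 under 5. Cdc45, Cdc6, Mcm4 and Pcna were called higher under 4 and lower under none, Rrm2 was higher under 4 and lower under 1, and Gins3 higher under 4 and lower under 2. In the other direction, Pold2 was called lower under 5 and higher under 1. Gins2, Lig1 and Rfc1 were lower under 4 and higher under none. Ccne1, Pold1, Pole, Rfc5 and Rrm1 were lower under 4 and higher under 1. These counts are not independent, because 4 treatments share 1 control and 2 share the other. Over all genes, 27.2 to 39.4% were called higher in a single treatment and 26.5 to 35.7% lower. How often any gene was called higher or lower in several treatments was not counted, so recurrence is not read as particular to these genes.

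**Figure D1:**
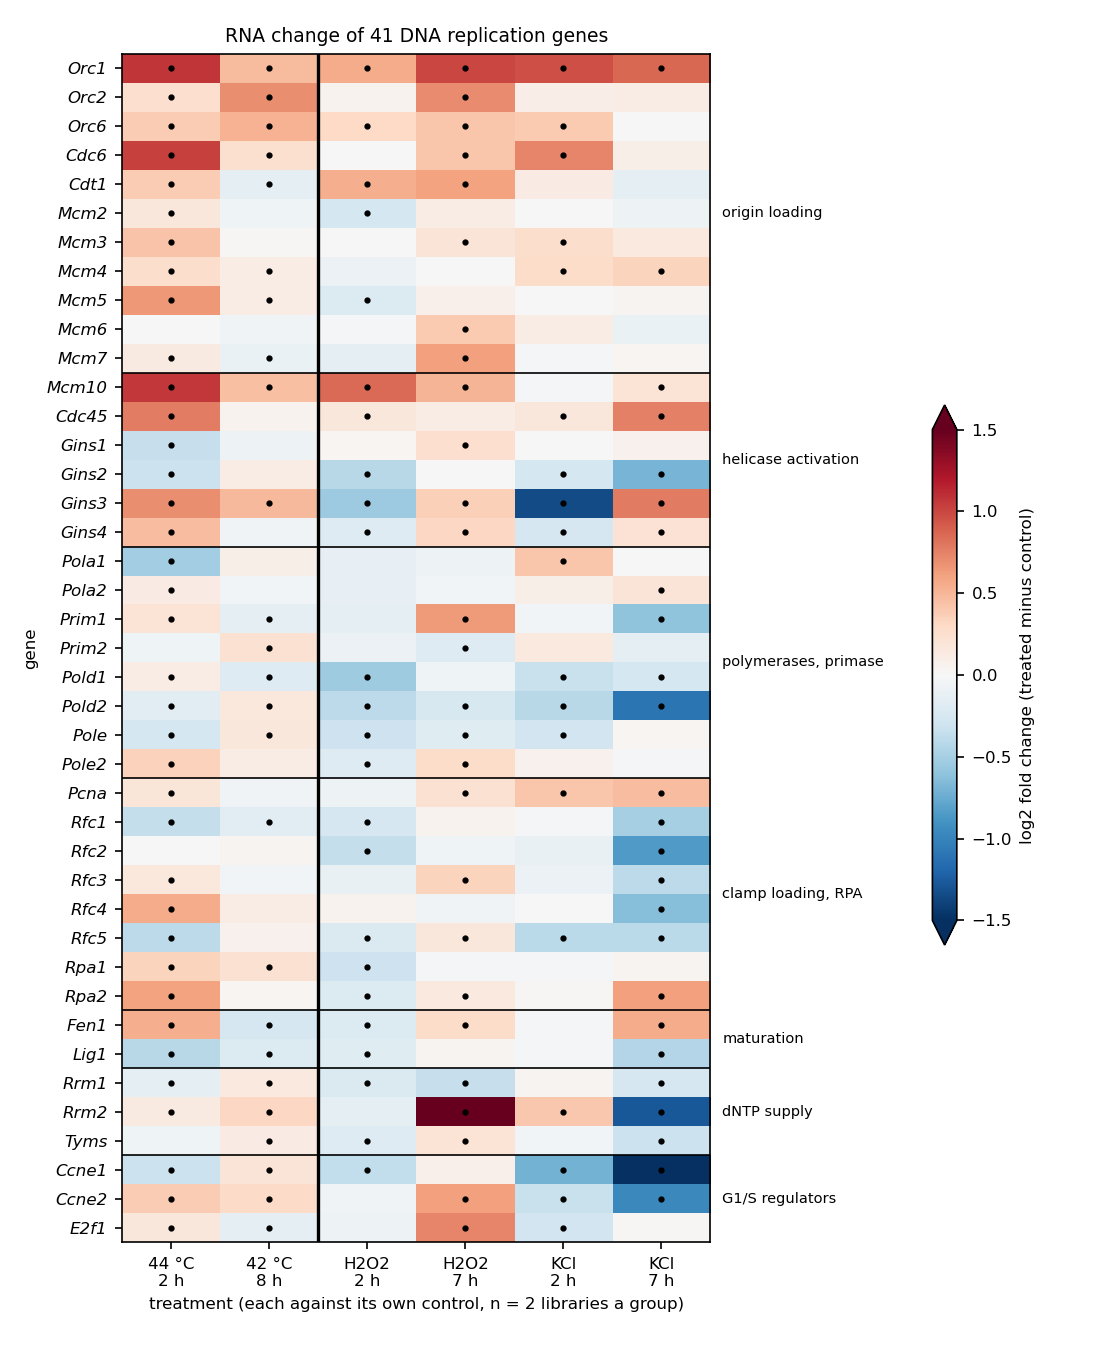
Log2 fold change in RNA of the 41 replication genes (rows, ordered by role) under 6 treatments against their control (columns), red for higher and blue for lower, with a dot where the gene was called. The row of Orc1 carries a dot in all 6 columns, and the KCl 7 h column holds both deep blue cells (Ccne1, Rrm2, Pold2) and red ones (Orc1, Gins3, Cdc45).

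The heat comparisons asked how RNA of these genes changed under severe short heat and under milder long heat. At 44 °C for 2 h, 27 members were called higher and 10 lower (65.9% and 24.4%), with a median log2 change of 0.17 against 0.00 over all 12747 genes tested. The background was wide: 71% of all genes were called, 35.4% higher and 35.7% lower. Of the 11 origin-loading genes 10 were called higher and none lower. Mcm10, which binds the helicase and helps to start unwinding, had 61.4 and 61.8 CPM in the control and 129 CPM in both 44 °C libraries. Cdc6, the loading ATPase, had 62.8 and 64.4 CPM in the control and 129 and 131 CPM at 44 °C. Orc1 had 25.6 and 23.9 CPM in the control and 49.5 and 54.8 CPM at 44 °C. For each of these genes both heated libraries lay far above both control libraries, at about double the level. The log2 change was 1.07 ± 0.04 (SE) for Mcm10 (adjusted p = 5.2e-11, edgeR), 1.03 ± 0.04 for Cdc6 (1.17e-10) and 1.07 ± 0.07 for Orc1 (4.31e-09).

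The helicase subunits moved less. Mcm5 went from 254 and 273 to 411 and 416 CPM, and Mcm3 from 253 and 260 to 343 and 349 CPM. Mcm4 had 361 and 363 CPM in the control and 435 and 433 CPM at 44 °C, and Mcm2 327 and 337 against 371 and 379 CPM. Mcm7 had 322 and 330 CPM against 351 and 362 CPM, while Mcm6 had 358 and 353 against 356 and 358 CPM. The first 5 subunits were called higher, by up to 0.65 on the log2 scale for Mcm5, but Mcm6 was not called (log2 change 0.01). Mcm7's call was lost in 2 of 10 alternative analyses (highest adjusted p 0.0971), without the first heat control or the second 44 °C library. Cdt1, the partner of Cdc6 in loading, rose from 103 and 104 to 133 and 136 CPM, and E2f1 had 81.7 and 80.3 CPM in the control against 90.3 and 91.4 CPM. Cdc45, the helicase co-factor, rose by 0.77 ± 0.04 (adjusted p = 2.66e-09, edgeR), from 71.4 and 73.3 to 121 and 125 CPM.

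Genes that act later on the strands were split at 44 °C. Pola1, the catalytic subunit of polymerase alpha, had 107 and 105 CPM in the control and 79.2 and 68.5 CPM at 44 °C, and Lig1, the ligase that joins Okazaki fragments, had 187 and 195 CPM against 140 and 146 CPM. Both heated libraries lay below both controls for each gene, and the log2 change was -0.52 ± 0.06 for Pola1 (adjusted p = 1.43e-06, edgeR) and -0.42 ± 0.04 for Lig1 (6.2e-07). Fen1, the flap nuclease that acts just before Lig1, was higher instead, from 89.8 and 94.8 to 133 and 137 CPM (log2 change 0.54). The clamp loader subunits Rfc5 and Rfc1 fell by 0.39 and 0.36, against the direction of most of the clamp and RPA group, where 5 of 8 were called higher and 2 lower. The other members called lower were Gins1 (-0.35), Gins2 (-0.32), Pole (-0.26), Pold2 (-0.17) and Ccne1 (-0.32), each against most called members of its role, and Rrm1 (-0.14). The uncalled members were Mcm6, Prim2 (-0.07), Rfc2 (-0.01) and Tyms (-0.06).

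**Figure D2:**
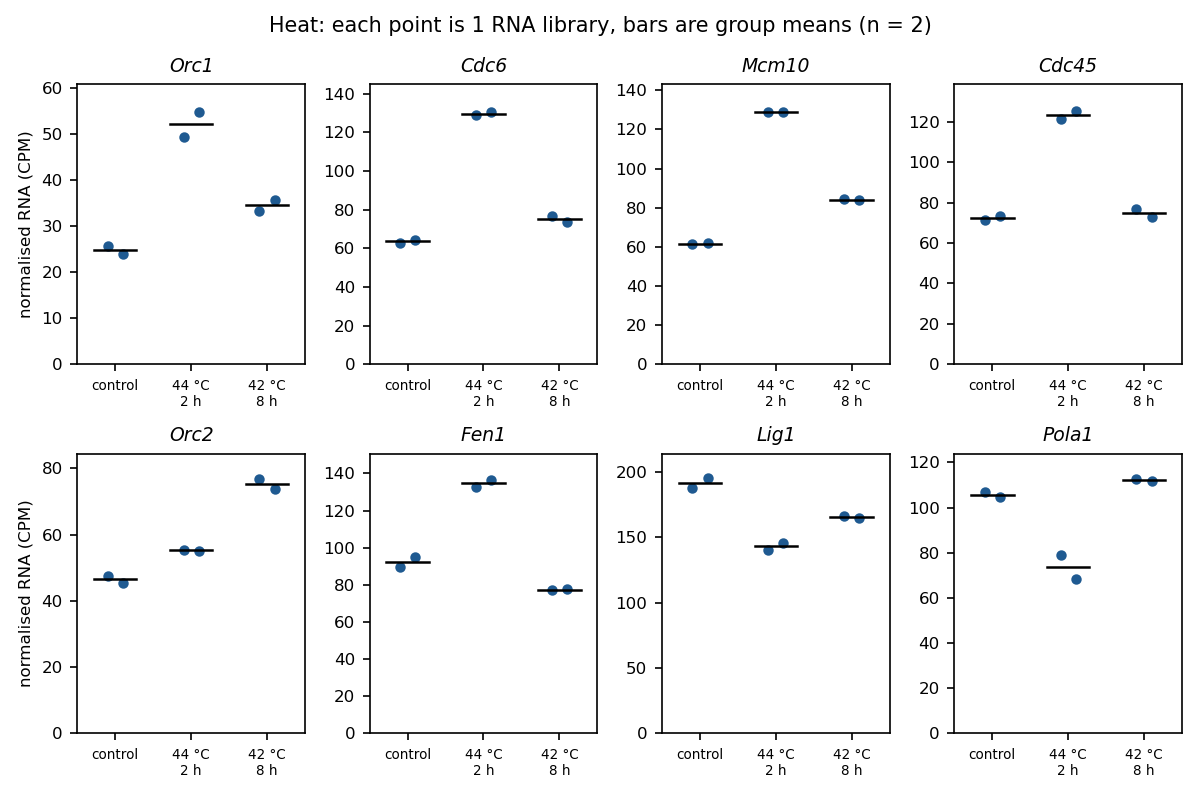
CPM of 8 replication genes in each heat RNA library (points, with bars as group means): control, 44 °C for 2 h and 42 °C for 8 h. Orc1, Cdc6, Mcm10 and Cdc45 are highest at 44 °C, Orc2 is highest at 42 °C (76.7 and 73.7 CPM), and Pola1 and Lig1 are lowest at 44 °C.

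At 42 °C for 8 h the changes were smaller, and no member reached a 2-fold change. There 17 members were called higher and 8 lower, beside 31.7% and 31.9% of all genes (63.6% in all), with a median log2 change of 0.08 against -0.01 over all genes. This split depended on the scale: limma on log2(TPM + 1) gave 6 higher and 20 lower, where the median of all genes was itself -0.16 and that of the members -0.09. On that scale Cdc6, Mcm4, Mcm5, Pold2, Pole, Rrm1 and Tyms changed sign. Without the first 42 °C library 11 members were higher and 4 lower, and without the first heat control library 4 were lower.

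All 3 origin complex genes kept their call at 42 °C in all 10 alternatives, as did Gins3, Mcm10, Rrm2, Fen1, Lig1 and Pold1. Orc2 had 47.6 and 45.5 CPM in the control and 76.7 and 73.7 CPM at 42 °C, and Orc6 57.2 and 56.8 against 83.9 and 79.0 CPM. Orc1 had 25.6 and 23.9 CPM in the control and 33.4 and 35.7 CPM at 42 °C. In each case both heated libraries were above both controls. The log2 change was 0.69 ± 0.05 for Orc2 (adjusted p = 2.59e-08, edgeR), 0.52 ± 0.05 for Orc6 (2.98e-07) and 0.48 ± 0.07 for Orc1 (3.24e-05), and limma on log2(TPM + 1) gave 0.48, 0.33 and 0.25. Gins3 rose by 0.49 ± 0.07 (adjusted p = 4.29e-05, edgeR) and by 0.28 on the log2(TPM + 1) scale. Fen1 and Lig1 both fell, by 0.25 and 0.21, as did Pold1 (-0.20), Rfc1 (-0.17), Cdt1 (-0.14), Prim1 (-0.13), E2f1 (-0.13) and Mcm7 (-0.10). The last 5 did not all hold when 1 library was left out: without the first 42 °C library Cdt1, E2f1, Prim1 and Rfc1 lost the call and without the first heat control library Cdt1, E2f1, Mcm7 and Prim1, and the highest adjusted p over the alternatives was 0.17 for Cdt1, 0.174 for Prim1, 0.114 for E2f1, 0.304 for Mcm7 and 0.0642 for Rfc1.

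Set directly against each other, the heat regimes differed for most members. Against 44 °C, 15 members were higher at 42 °C and 23 lower, with 75.1% of all genes called (37.9% higher, 37.2% lower). On log2(TPM + 1) the split was 6 and 27, where the median of all genes was -0.20 and that of the members -0.42, and Orc6 and Rfc1, called higher by 0.13 and 0.19 on the main scale, stood at -0.11 and -0.06. Also on that scale Lig1, Rrm2 and Tyms changed sign. The largest differences were in Fen1 (-0.80), Cdc6 (-0.79), Cdc45 (-0.72) and Mcm10 (-0.62), all lower at 42 °C than at 44 °C. Pola1 (0.60), Ccne1 (0.52), Rfc5 (0.46) and Orc2 (0.44) were higher at 42 °C, as were Gins2 (0.43) and Gins1 (0.26), though the call of Gins1 was lost on log2(TPM + 1) (adjusted p = 0.979, limma) and without the first 42 °C library. Temperature and time differ together between these groups and cannot be told apart.

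The H2O2 comparisons asked how these genes responded to an oxidant early and late. After 2 h, 5 members were called higher and 19 lower, beside 27.3% and 26.5% of all genes (53.9% in all), with a median log2 change of -0.14 against 0.00 over 13256 genes. Without the second H2O2 2 h library 11 were lower. The members called higher all act at origins or on the helicase. Mcm10 had 72.7 and 72.0 CPM in the control and 131 CPM in both libraries after 2 h. Cdt1 had 90.6 and 100 CPM in the control and 145 and 133 CPM after 2 h. Orc1 had 32.7 and 29.6 CPM against 46.8 and 44.9 CPM. In all 3 genes the groups were apart, with log2 changes of 0.85 ± 0.06 for Mcm10 (adjusted p = 6.43e-08, edgeR), 0.54 ± 0.07 for Cdt1 (1.74e-05) and 0.56 ± 0.07 for Orc1 (1.14e-05). Orc6 rose by 0.30, and the call of Cdc45 (0.17) was lost in 7 alternatives, at an adjusted p of 0.558 without the first H2O2 2 h library.

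The polymerase, clamp and GINS genes made up most of the falls after 2 h of H2O2. None of the 8 polymerase and primase genes was called higher and 4 were called lower, and among the 8 clamp and RPA genes 5 were lower. Gins3 had 20.5 and 19.5 CPM in the control and 14.6 and 12.8 CPM after 2 h, a fall of 0.55 ± 0.09 (adjusted p = 0.000121, edgeR). Pold2, the second subunit of polymerase delta, had 63.2 and 63.7 CPM against 47.6 and 49.0 CPM. Both groups were separate in each of these genes. Pold1 fell by 0.54, Gins2 by 0.41 and Pold2 by 0.39. Mcm2 (308 and 316 against 269 and 249 CPM) and Mcm5 (313 and 328 against 285 and 270 CPM) fell by 0.27 and 0.21, against the other called origin-loading genes. Without the second H2O2 2 h library the adjusted p of Mcm2 was 0.0648, and that of Mcm5 reached 0.0993 over the alternatives.

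By 7 h of H2O2 most of these genes stood above the control. The count was 23 higher and 4 lower, beside 39.4% and 31.1% of all genes (70.5% in all), and the median log2 change was 0.20 against 0.08. On log2(TPM + 1), 16 were higher and 5 lower. Without the first H2O2 7 h library 15 were higher, without the second only 1 was lower, and without the first control library 2 were lower. Origin loading again had the largest share called higher, with 8 of 11 higher and none lower (median 0.42), while the G1/S regulators had a higher median (0.61).

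The largest rise after 7 h of H2O2 was in Rrm2, the small subunit of ribonucleotide reductase, which makes deoxynucleotides and is limiting in S phase. Rrm2 had 170 and 167 CPM in the control, 153 and 155 CPM after 2 h, and 452 and 498 CPM after 7 h. The 7 h libraries were above all others in that experiment. The log2 change at 7 h was 1.50 ± 0.06, a 2.83-fold rise (adjusted p = 2.91e-11, edgeR). Its partner Rrm1, the large subunit, went the other way, with 374 and 360 CPM in the control and 282 and 294 CPM after 7 h (-0.35, adjusted p = 7.3e-05, edgeR).

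Among the early-acting genes Orc1 had 62.3 and 63.1 CPM after 7 h, a 2.01-fold rise (log2 change 1.01 ± 0.07, adjusted p = 7.98e-09, edgeR). Orc2 went from 56.5 and 56.8 to 91.3 and 93.1 CPM (0.70 ± 0.06, 6.04e-08), and Mcm7 from 347 and 353 to 545 and 531 CPM (0.62, 4.76e-07). The treated libraries of all 3 lay above the controls. Cdc6 had 77.0 and 72.5 CPM in the control and 99.4 and 101 CPM, and Cdt1 144 and 147 CPM after 7 h, both higher. Of the other helicase subunits, Mcm6 had 324 and 295 CPM in the control and 410 and 403 CPM after 7 h, a rise of 0.39, and Mcm3 283 and 288 against 327 and 328 CPM. Mcm2 (338 CPM in both), Mcm4 (347 and 364 CPM) and Mcm5 (341 and 334 CPM) were not called, so that 3 of the 6 subunits were called higher. The call of Mcm3 was lost in 4 of 10 alternatives (adjusted p up to 0.223), without either H2O2 7 h library, without the first control library and on log2(TPM + 1).

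Of the G1/S regulators, E2f1, the transcription factor, had 76.6 and 79.5 CPM in the control and 130 and 128 CPM after 7 h of H2O2. Ccne2, cyclin E2, had 50.7 and 47.0 CPM against 68.3 and 81.5 CPM, and Ccne1 31.0 and 28.9 against 32.2 and 30.9 CPM. The groups were apart for E2f1 and Ccne2 and overlapped for Ccne1. The log2 change was 0.73 ± 0.08 for E2f1 (adjusted p = 1.03e-06, edgeR), 0.61 ± 0.12 for Ccne2 (0.000393) and 0.07 for Ccne1 (0.48). In the polymerase group Prim1, the catalytic primase subunit, had 85.1 and 83.5 CPM in the control and 134 and 128 CPM after 7 h, a rise of 0.64, and Pole2 rose by 0.28. Pold2 (-0.24), Prim2 (-0.19) and Pole (-0.18) fell, and none of these held throughout: without the second H2O2 7 h library the adjusted p values were 0.0753, 0.111 and 0.0684.

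From 2 h to 7 h of H2O2, 29 members were higher at the later time and 2 lower, beside 37.3% and 36.1% of all genes (73.4% in all). Rrm2 led (1.63), followed by Gins3 (0.90), E2f1 (0.81) and Prim1 (0.77). Mcm10 fell between the times by 0.34, from 131 CPM to 98.2 and 109 CPM. The other fall, of Rrm1 (-0.14), was lost in 5 alternatives, with an adjusted p of up to 0.166.

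KCl for 2 h gave as many falls as rises. There were 9 members higher and 10 lower, beside 27.2% and 27% of all genes (54.2% in all), with a median log2 change of -0.01 against 0.00, and on log2(TPM + 1) 8 were higher and 14 lower. Gins3 had 20.5 and 19.5 CPM in the control and 8.07 and 7.79 CPM after 2 h of KCl, the lowest of all its libraries in that experiment. Ccne1 had 31.0 and 28.9 CPM against 19.8 and 16.8 CPM. Both treated libraries of each gene lay below the controls, with a log2 change of -1.34 ± 0.10 for Gins3 (adjusted p = 5.26e-08, edgeR) and -0.71 ± 0.10 for Ccne1 (2.57e-05). Pold2 fell by 0.41 and Rfc5 by 0.40.

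In the other direction, Orc1 reached 59.5 and 62.7 CPM after 2 h of KCl and Cdc6 127 and 121 CPM, above both controls. The log2 change was 0.97 ± 0.07 for Orc1 (adjusted p = 3.9e-08, edgeR) and 0.73 ± 0.07 for Cdc6 (8.56e-07). Pcna had 441 and 421 CPM in the control and 560 and 587 CPM after 2 h (0.41), and Pola1 and Rrm2 rose by 0.42 and 0.40. No origin-loading gene was called lower and 5 of 11 were higher. Cdc45 (0.17) was called, and its call was lost in 6 alternatives (adjusted p up to 0.516).

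After 7 h of KCl the members ran from a log2 change of -2.43 to one of 0.86. There were 10 higher and 15 lower, beside 37.2% and 31.6% of all genes (68.8% in all), with a median log2 change of 0.00 against 0.04, and on log2(TPM + 1) 7 were higher and 19 lower. The largest fall was that of Ccne1. It had 31.0 and 28.9 CPM in the control and 6.22 and 4.81 CPM after 7 h. Ccne2 had 50.7 and 47.0 CPM in the control and 23.6 and 26.3 CPM. Rrm2 had 170 and 167 CPM against 69.8 and 69.5 CPM. All of these treated libraries lay below every other library of their gene in that experiment. Ccne1 was at 0.186 of the control level (log2 change -2.43 ± 0.11, adjusted p = 5.39e-10, edgeR), Rrm2 at 0.414 (-1.27 ± 0.06, 7.74e-10) and Ccne2 fell by 0.97 ± 0.13 (1.29e-05). E2f1, at 73.5 and 85.3 CPM, was not called.

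All 5 clamp loader subunits fell after 7 h of KCl, by 0.39 to 0.85 on the log2 scale. Rfc2, one of the small subunits, had 78.2 and 78.0 CPM in the control and 42.8 and 43.7 CPM after 7 h (-0.85, adjusted p = 4.63e-08, edgeR). The clamp that this complex loads did not follow it: Pcna had 574 and 617 CPM after 7 h against 441 and 421 CPM (0.47, adjusted p = 2.78e-05, edgeR). Rpa2, the middle subunit of the single-strand binding protein, rose by 0.62 from 70.5 and 70.2 to 104 and 112 CPM. Among the polymerase genes Pold2 fell to 30.3 and 29.0 CPM, 0.467 of the control level, and Prim1 to 54.6 and 56.1 CPM (-0.61). Pola2 was called higher (0.19), but not without the second KCl 7 h library (adjusted p = 0.149).

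Of the 6 helicase activators, 4 were called higher after 7 h of KCl and 1 lower. The calls of Mcm10 and Gins4 were lost without the second KCl 7 h library and on log2(TPM + 1), with an adjusted p of up to 0.201 and 0.083, and those of Gins3 and Cdc45 held in all 10 alternatives. Gins3 had 32.5 and 36.2 CPM (log2 change 0.78 ± 0.08, adjusted p = 1.3e-06, edgeR) and Cdc45 126 and 133 CPM against 77.9 and 75.4 CPM (0.75 ± 0.06, 1.45e-07). Gins2 went the other way (-0.70). Orc1 rose by 0.86 ± 0.07 (adjusted p = 7.67e-08, edgeR) to 55.0 and 58.1 CPM, and Fen1 by 0.56 from 109 and 111 to 158 and 166 CPM. Of the Mcm2 to Mcm7 subunits Mcm4 alone was called, at 435 and 463 CPM against 361 and 351 CPM (0.34). Cdc6 (73.7 and 85.4 CPM) and Cdt1 (83.6 and 88.3 CPM) were not called.

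**Figure D3:**
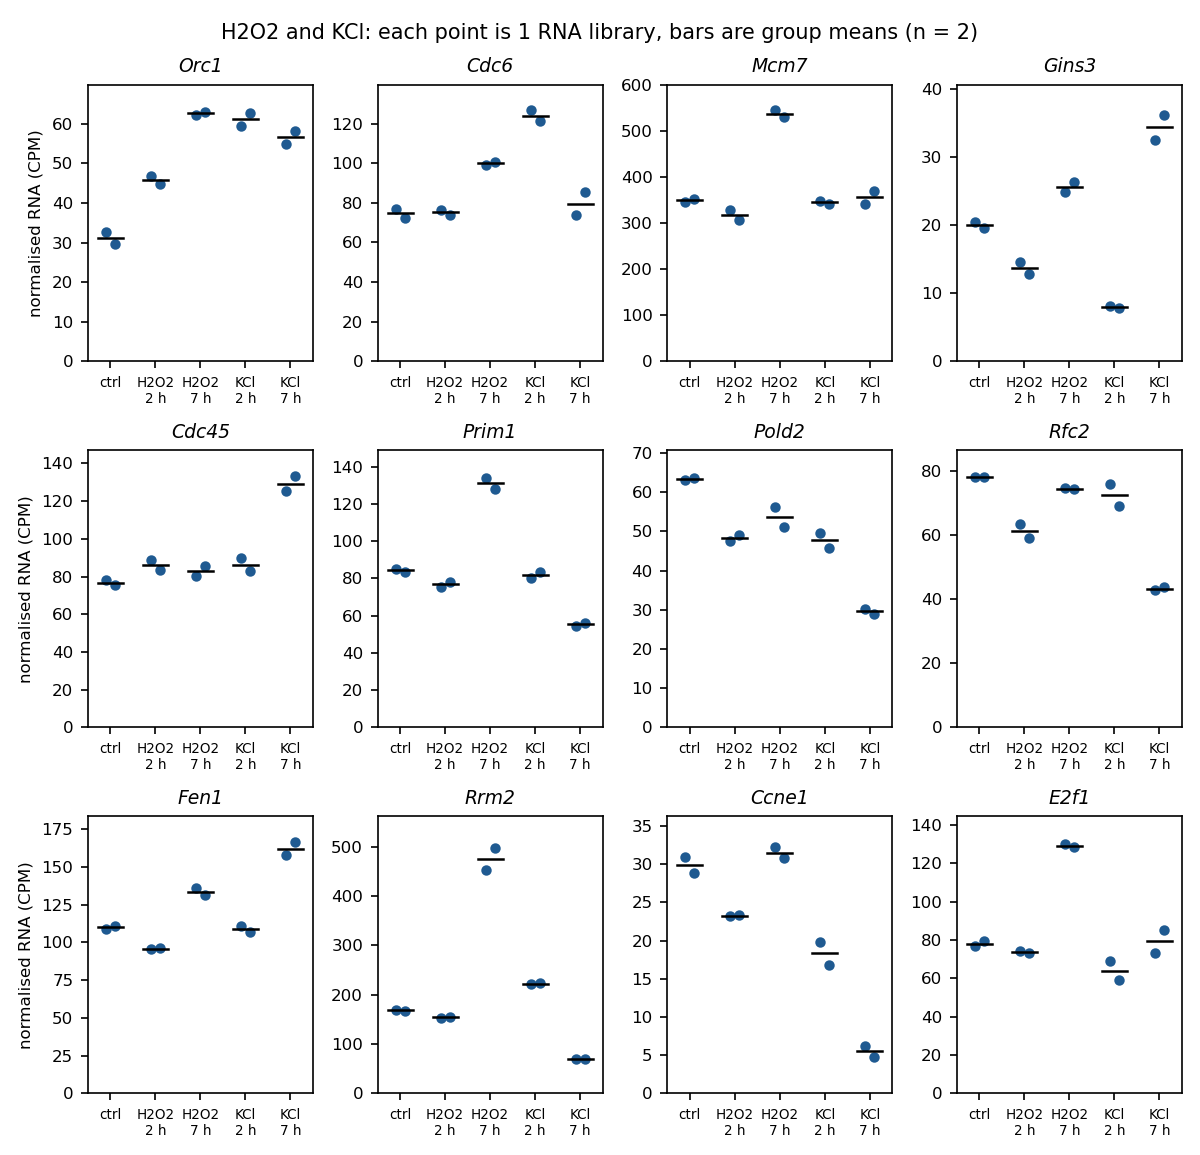
CPM of 12 replication genes in each RNA library of the H2O2 and KCl experiment (points; bars are group means), from the shared control through 2 h and 7 h of each treatment. Rrm2 runs from 69.5 CPM (KCl 7 h) to 498 CPM (H2O2 7 h), and Gins3 is lowest after 2 h and highest after 7 h of KCl.

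Between 2 h and 7 h of KCl, 8 members were higher at the later time and 19 lower, beside 35.1% and 33.7% of all genes (68.8% in all). Gins3 changed sign against the control and rose 4.33-fold between the times (log2 change 2.11 ± 0.10, adjusted p = 3.58e-10, edgeR). Rpa2 (0.59), Cdc45 (0.58) and Fen1 (0.58) also rose, together with Pole (0.32) and E2f1 (0.31), whose adjusted p was 0.0659 without the second KCl 7 h library. Ccne1 (-1.72), Rrm2 (-1.68), Rfc2 (-0.74), Pold2 (-0.69) and Gins2 (-0.43) fell between the times.

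The 2 agents were compared directly at each time. At 2 h, 6 members were higher with H2O2 than with KCl and 20 lower, beside 27% and 24.2% of all genes (51.3% in all). On log2(TPM + 1) the split was 7 and 10, and without the second H2O2 2 h library 10 were lower. Mcm10 (0.87), Gins3 (0.79), Cdt1 (0.42) and Ccne1 (0.35) were higher with H2O2, and Cdc6 (-0.72), Pola1 (-0.54), Rrm2 (-0.53) and Pcna (-0.49) higher with KCl. The adjusted p of Ccne1 was 0.11 without the second KCl 2 h library, and the call of Rfc5 (0.18) was lost in 5 alternatives (up to 0.179).

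At 7 h the contrast was wider, with 25 members higher with H2O2 than with KCl and 8 lower, beside 41% and 37.4% of all genes (78.4% in all), and a median of 0.31 against 0.05. Rrm2 was 6.82-fold higher with H2O2 (log2 difference 2.77 ± 0.06, adjusted p = 1.22e-13, edgeR), Ccne1 5.67-fold (2.50 ± 0.11, 7.87e-11), Ccne2 3-fold (1.59 ± 0.13, 4.74e-08) and Prim1 2.37-fold (1.24 ± 0.06, 9.2e-11). All 5 Rfc genes were higher with H2O2, by 0.55 to 0.78. Cdc45 (-0.64), Rpa2 (-0.47), Gins3 (-0.43) and Mcm4 (-0.34) were higher with KCl, as were Pola2 (-0.24), Pcna (-0.24) and Pole (-0.21), of which Pola2 lost the call without the second KCl 7 h library (adjusted p = 0.0536) and Pcna without that library or the second H2O2 7 h library (up to 0.0759).

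The members with and without the E2F-type letters in their promoter are set side by side for each treatment. At 44 °C 10 of the 13 members with a match were called higher and 2 lower (median 0.35), and of the 20 without one 14 and 5 (median 0.18). For 7 h of H2O2 the counts were 9 higher and none lower with a match (median 0.33) and 11 and 2 without (median 0.16). For 7 h of KCl they were 2 higher and 3 lower with a match (median -0.004) and 6 and 9 without (median -0.03). At 42 °C the order was the reverse, with 4 higher and 4 lower with a match (median 0.01) and 9 and 4 without (median 0.09). After 2 h of H2O2 they were 2 and 5 with a match (median -0.12) and 3 and 10 without (median -0.16). After 2 h of KCl they were 4 and 2 with a match (median 0.06) and 4 and 4 without (median -0.01). Whether the classes differ was not tested.

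Other genes of the replication and cell cycle programme gave the setting of these changes. They come from 9 lists by function, 102 genes in all with the mitotic list. After 7 h of H2O2, 6 of 7 S-phase checkpoint genes were called higher and none lower (median 0.52, with Chek1 at 0.67), as were 4 of 8 other origin licensing genes with 1 lower (Lrwd1 0.94, Orc5 0.87) and 7 of 12 firing and fork genes with 2 lower (Recql4 1.38, Ctc1 1.22 and Dbf4 -0.76). Of 7 other nucleotide metabolism genes 5 were higher and 2 lower (Dctd 1.03, Samhd1 -0.88, Tk1 -0.84), and of 15 other polymerase and maturation genes 7 were higher and 3 lower (Dna2 0.96, Top2a -1.24). Of 12 E2F and RB genes 5 were higher and 1 lower, led by Rb1 (2.37). Chromatin assembly genes had 4 of 8 higher and 1 lower. The G1/S control list went the other way, with 7 of 18 higher and 9 lower (median -0.12). Over all genes 39.4% were higher and 31.1% lower after 7 h of H2O2. The share higher in the E2F and RB list (41.7%) was near that of all genes. It was 46.7% in the polymerase and maturation list and 50% in the licensing list. With KCl at 7 h several lists held more falls than rises: 8 of 15 polymerase and maturation genes were lower and 2 higher (Dscc1 -1.31), 4 of 7 nucleotide metabolism genes lower and 1 higher (Dctd -1.42, Tk1 -1.19), and 12 of 18 G1/S control genes lower and 1 higher. Firing and fork genes were split there, with 7 of 12 higher and 4 lower (Recql4 1.03, Ctc1 -0.99). Over all genes 37.2% were higher and 31.6% lower after 7 h of KCl. At 44 °C, 5 of 8 chromatin assembly genes were higher and none lower (Asf1b 0.98), beside 35.4% and 35.7% of all genes. Nucleotide metabolism genes went the other way, with 2 of 7 higher and 5 lower. E2F and RB genes also held more falls, with 1 of 12 higher and 4 lower. The remaining lists, apart from the mitotic list, each held more rises than falls. Of all 87 listed genes outside the mitotic list, 41.4% were higher and 33.3% lower.

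At 7 h the balance of calls among mitotic genes differed from that among replication genes. Of 15 genes of G2 and mitosis, 14 were called lower after 7 h of H2O2 and none higher (median -1.22), among them Plk1 (-3.15) and Cenpf (-2.64), while 9 were higher after 7 h of KCl and none lower (median 0.34, with Mki67 at 0.91 and Cenpe at 0.87). Cenpe, at 0.05, was the one not called after H2O2. At 44 °C 5 were higher and 5 lower, at 42 °C 8 and 3, after 2 h of H2O2 none and 12, and after 2 h of KCl 4 and 4. Over all genes 31.1% were lower after 7 h of H2O2 and 37.2% higher after 7 h of KCl. The shares of all genes for the other treatments are those given above. Beside the replication genes that were higher after 7 h of H2O2, Cdkn1a, the p21 inhibitor of cyclin-dependent kinases, rose from a mean of 32.4 to 1413 CPM (log2 change 5.45, adjusted p = 2.85e-15, edgeR), and Ccnd1, cyclin D1, from 74.2 to 209 CPM (1.50). With KCl at 7 h both fell, by 1.42 and 2.20, Ccnd1 to 16.1 CPM. Cdkn1a rose at 44 °C (0.54) and after 2 h of H2O2 (1.69), fell at 42 °C (-1.13) and was not called after 2 h of KCl (0.15). Ccnd1 was at -0.42 at 44 °C and 0.90 at 42 °C, both called, and was not called after 2 h of H2O2 (-0.11) or KCl (0.11). Cdkn2a, read in every library as given above, fell at 44 °C (-0.44), 42 °C (-0.13) and with H2O2 (-0.32 at 2 h, -0.33 at 7 h), and was not called with KCl (0.07 and 0.04). The part of cell cycle position in the values of the replication genes was not tested.

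**Figure D4:**
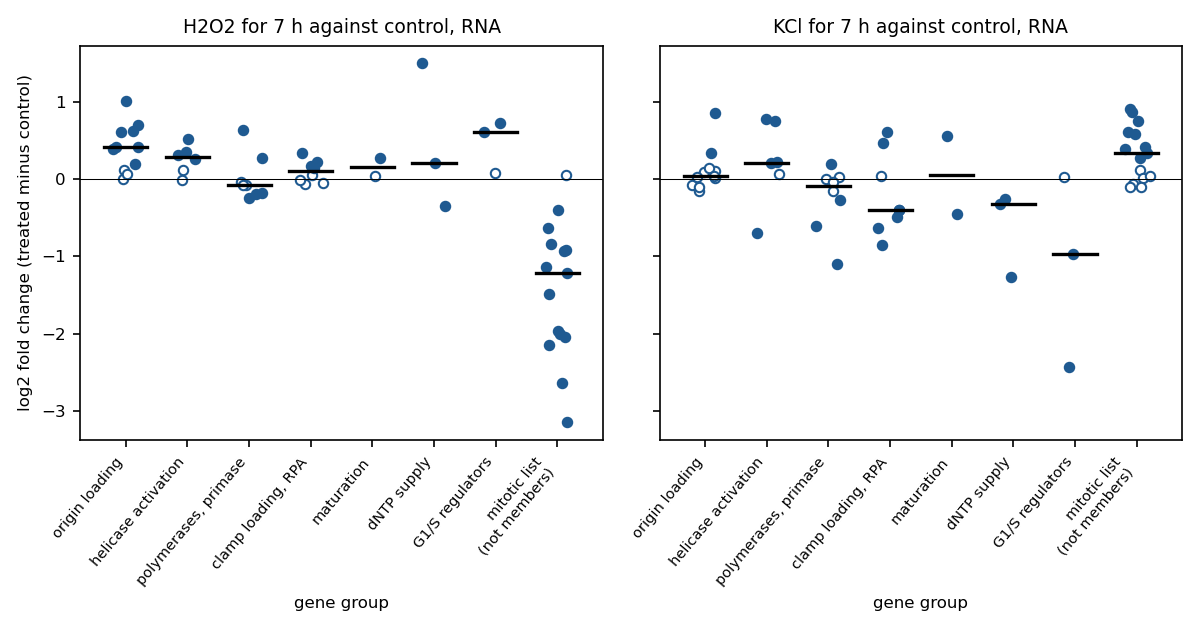
Log2 fold change in RNA after 7 h of H2O2 and after 7 h of KCl against their shared control for each replication gene, by role, and for 15 mitotic genes; filled points are called and bars are medians. Origin-loading genes have a median of 0.42 with H2O2 and 0.05 with KCl, while the mitotic genes have -1.22 and 0.34.

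Ribosome footprints asked how far changes in RNA reached translating ribosomes. Footprint libraries were shallower than the RNA, and fewer genes of any kind were called. The first H2O2 2 h library was the shallowest (1460751 counts), and the H2O2 2 h replicates had the lowest correlation (0.957). After 2 h of H2O2, 1 member was called lower (Ccne2) and none higher, beside 0.768% and 1.14% of all genes (1.91% in all). 13 members had an unadjusted p under 0.05 and DESeq2 called 1 higher and 3 lower. The median log2 change of the members was -0.03 against 0.00 over all genes. Ccne2 had 72.1 and 52.2 CPM of footprints in the control and 15.3 and 28.9 CPM after 2 h, while its RNA was not called. Both treated libraries were low, with a log2 change of -1.40 ± 0.29 (adjusted p = 0.028, edgeR), and the call was lost in 5 of 10 alternatives (up to 0.163), among them without the first H2O2 2 h library and without either control library, where no member was lower.

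In footprints after 7 h of H2O2, 8 members were called higher and 2 lower, beside 17.2% and 10.6% of all genes (27.7% in all), and on log2(TPM + 1) 11 were higher and none lower. The median log2 change of the members was 0.19 against 0.01 over all genes. Rrm2 had 355 and 473 CPM of footprints in the control and 862 and 1152 CPM after 7 h. Cdt1 had 95.6 and 126 CPM against 196 and 228 CPM, and Cdc6 68.7 and 83.0 CPM against 132 CPM in both. The treated libraries were above the controls in all of these. The log2 change was 1.28 ± 0.23 for Rrm2 (adjusted p = 0.00127, edgeR), 0.94 ± 0.19 for Cdt1 (0.00249) and 0.80 ± 0.18 for Cdc6 (0.00538), of which Rrm2 and Cdt1 kept the call in all 10 alternatives and Cdc6 in 9 (0.0823 without the first control library). Fen1 rose by 0.69. Orc1, Orc6, Prim1 and Mcm10 were the others called higher, and Pold2 (-0.81) and Rrm1 (-0.51) were lower. The count higher was 3 without either H2O2 7 h library, 2 without the first control and 5 without the second, and the count lower was 0, 0, 1 and 0.

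With KCl for 2 h, 2 members were called higher in footprints and 1 lower, beside 1.79% and 5.06% of all genes (6.86% in all). The median log2 change of the members was 0.25 against 0.01 over all genes, with 32 of 41 members above 0. Cdc6 had 68.7 and 83.0 CPM in the control and 158 and 172 CPM after 2 h, and Orc1 38.4 and 51.4 against 91.2 and 99.4 CPM. Both genes were about double the control in both libraries, with a log2 change of 1.12 ± 0.18 for Cdc6 (adjusted p = 0.0035, edgeR), kept in all 10 alternatives, and 1.09 ± 0.20 for Orc1 (0.00666), lost without the second KCl 2 h library or the first control. Ccne1 (-1.10, adjusted p = 0.0499, edgeR) kept its call in 1 of 10 alternatives, and was not called without either library of either group.

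After 7 h of KCl, 4 members were higher in footprints and 8 lower, beside 10.5% and 9.83% of all genes (20.4% in all). The median log2 change of the members was 0.03 against -0.02 over all genes. Ccne1 had 27.1 and 31.1 CPM in the control and 5.64 and 10.2 CPM after 7 h, and Rfc2 48.4 and 47.8 against 25.5 and 23.3 CPM. Fen1 had 113 and 130 CPM against 255 and 224 CPM. Groups did not overlap in any of the 3, whose calls held in all 10 alternatives: -1.84 ± 0.33 for Ccne1 (adjusted p = 0.00238, edgeR), -0.98 ± 0.20 for Rfc2 (0.00508) and 0.98 ± 0.19 for Fen1 (0.00349). Rfc4 (-1.14) and Rfc5 (-1.09) also fell, each keeping the call in 9 of 10. Pcna had 635 and 509 CPM in the control and 1004 and 1017 CPM (0.82, 0.0914 without the second control), Rpa2 rose by 0.86 and Orc1 by 0.67. Prim1, Pold2, Pole and Rfc1 were the others called lower, Rfc1 in the main analysis only. The footprints of Rrm2, which fell in RNA, stood at 252 and 317 CPM (-0.54, adjusted p = 0.117, edgeR). The count higher was 2 without the second KCl 7 h library or the first control, and the count lower was 3 and 5 without the first and second KCl 7 h library and 5 and 4 without the first and second control.

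**Figure D5:**
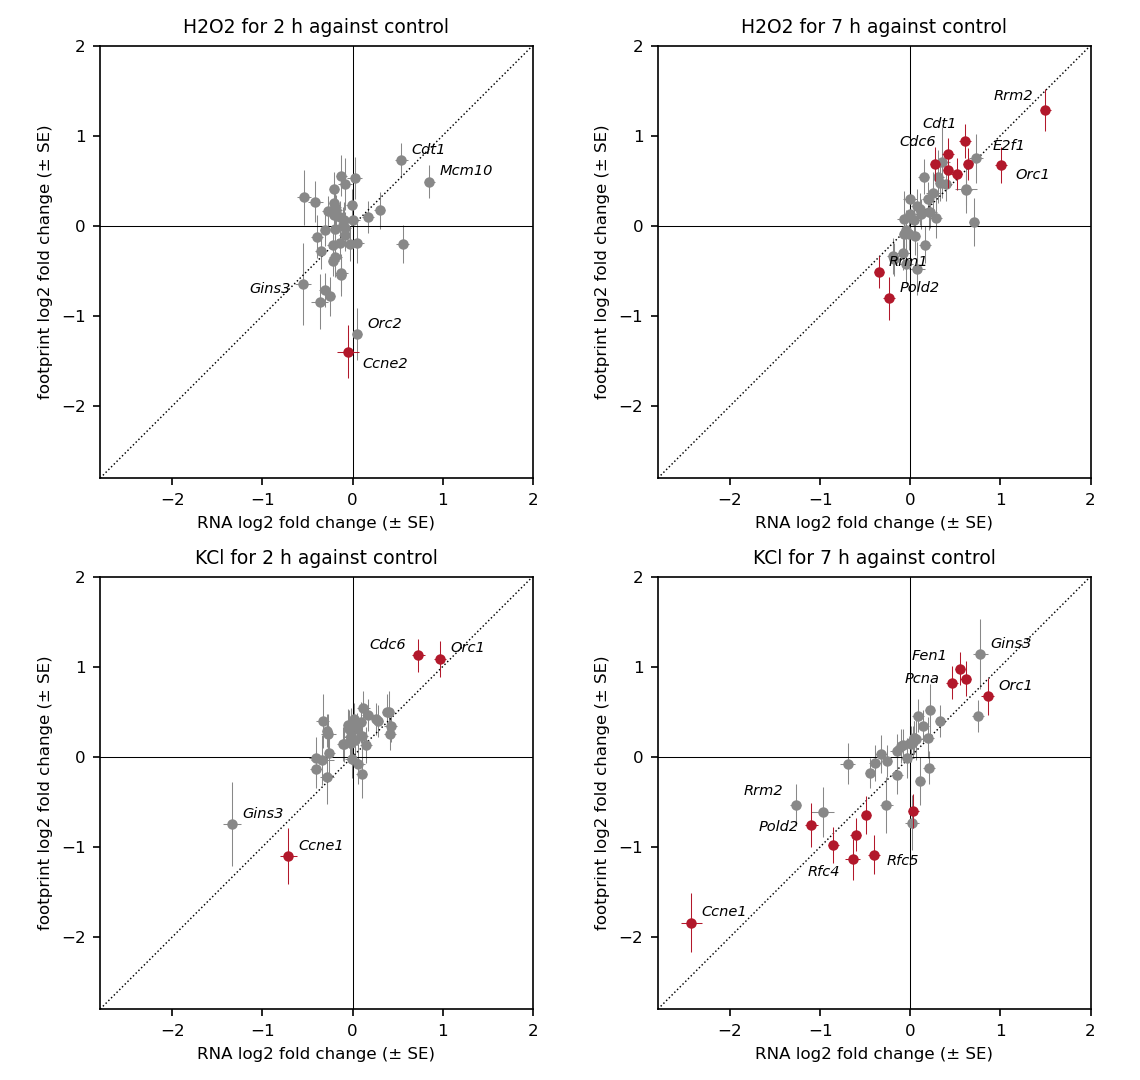
Log2 fold change in footprints (vertical, ± SE) against log2 fold change in RNA (horizontal, ± SE) of the 41 replication genes, a panel for each of the 4 H2O2 and KCl treatments; red points are called in footprints and the dotted line marks equal change. Rrm2 lies at the upper right after 7 h of H2O2 (1.50 in RNA, 1.28 in footprints) and Ccne1 at the lower left after 7 h of KCl (-2.43 and -1.84).

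Translational efficiency, the footprint change beyond the RNA change, was tested as an interaction in a fit over both kinds of library. After 2 h of H2O2 it was called lower for 3 members and higher for 1, beside 7.46% and 3.98% of all genes (11.4% in all), and DESeq2 called 6 and 6. Orc2 had 33.7 and 34.6 CPM of footprints in the control and 10.7 and 17.3 CPM after 2 h of H2O2, while its RNA had 56.5 and 56.8 against 57.5 and 59.5 CPM. Its footprints were low in both treated libraries, the first of which was the shallowest of all, with RNA near the control level. The efficiency of Orc2 was lower by 1.24 ± 0.24 on the log2 scale (-1.24, adjusted p = 0.00393, edgeR), kept in all 12 alternatives. Orc1, whose RNA rose, had 38.7 and 39.0 CPM of footprints against 38.4 and 51.4 CPM (-0.80 ± 0.19, adjusted p = 0.0139, edgeR, kept in 10 of 12), Ccne2 was at -1.33 (9 of 12) and Fen1 at 0.57 (6 of 12). Without the second H2O2 2 h footprint library 5 were lower and 4 higher, without the second footprint control 3 were higher, and without the first H2O2 2 h footprint library or any 1 of the RNA libraries none was higher.

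The other treatments gave few efficiency calls, but with KCl the median log2 change of the members stood above that of all genes. It was 0.24 against -0.02 after 2 h of KCl (34 of 41 members above 0) and 0.19 against 0.01 after 7 h (28 of 41). With H2O2 it was 0.02 against -0.01 after 2 h and 0.02 against 0.06 after 7 h. Whether these medians differ was not tested. At 7 h of H2O2 none of the 41 was called in either direction by edgeR (9.27% of all genes were, 4.69% higher and 4.57% lower), with 6 at an unadjusted p under 0.05 and 1 higher and 1 lower by DESeq2, and 1 was lower without the first footprint control. After 2 h of KCl 1 was higher (Pole, polymerase epsilon's catalytic subunit, 0.56) and none lower (12.8% of all genes, 3.58% higher and 9.18% lower). None was lower by DESeq2 either, which called 4 higher. At 7 h of KCl Pole was the 1 member called lower (-0.61), beside 3.88% of all genes lower and 1.69% higher (5.57% in all). Pole had 137 and 143 CPM of footprints in the control, 160 and 183 CPM after 2 h and 97.3 and 87.4 CPM after 7 h of KCl, above the control early and below it late. Its calls held in 5 and 4 of 12 alternatives. The call at 2 h was lost without the second KCl 2 h or first control footprint library and without any 1 of the RNA libraries, and 3 members were higher without the second footprint control. At 7 h no member was lower without the second KCl 7 h or the second control footprint library or any 1 of the RNA libraries, and 1 was higher without the second footprint control.

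In the control, the ratio of footprint TPM to RNA TPM had a median of 0.608 over the 41 members and 0.639 over 10480 genes, and 16 members lay above the latter. Rrm2 had the highest ratio (2.04, with 1.79 and 2.29 in the replicates, at percentile 93.5 of all genes), followed by the other nucleotide enzyme Tyms, thymidylate synthase (1.72), Ccne2 (1.31) and Rrm1 (1.24). The lowest were E2f1 (0.176, percentile 5.2), Rfc1 (0.303) and Pold1 (0.317).

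The study's subject was transcription past gene ends into neighbours, and its deposited calls cover these genes in part. The authors' deposited tables list, in each of 16 RNA libraries, readthrough transcripts downstream of genes for 6399 pairs of neighbouring genes, of which 21 have a replication gene as the downstream neighbour. In both KCl 2 h libraries the upstream gene was called for readthrough in 12 of these 21 pairs (57.1%), against 5 and 6 in the control (23.8 and 28.6%), while over all pairs the shares were 31.9 and 34.7% against 24.2 and 25.2%. This group had the highest share for the 21 pairs. In the libraries of all other groups it was 19.0 to 42.9%, with 38.1 and 42.9% at 42 °C. Among the 28 pairs with a replication gene upstream, the shares were 42.9 and 32.1% after 2 h of KCl against 42.9% in both controls. In the authors' deposited table Ankle2 before Pole and Fbxw8 before Rfc5 were called in both KCl 2 h libraries and in no other. Optn before Mcm10, Tram2 before Mcm3 and Pdk3 before Pola1 were called in all 16.

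Read-in, transcription that runs on from a gene into its neighbour, was called in the authors' deposited table for 1 of the 21 pairs, Wipf2 into Cdc6, in both KCl 2 h libraries only. Over all pairs the authors' deposited table calls read-in for 2.72% and 2.95% in those libraries, so that 1 of 21 is near the share of all pairs. The authors' deposited estimates for that pair were 0.0572 and 0.0587 after 2 h of KCl, 0.0154 and 0.0138 after 2 h of H2O2, 0.0114 and 0.0132 after 7 h of KCl, and 0.00109 and 0.00157 in the control. How the estimate is formed was not stated in these sources, so it is read only as higher or lower within the pair. Cdc6 was one of the genes that rose after 2 h of KCl, in RNA by 0.73 and in footprints by 1.12, and the part of read-in in its RNA count was not tested. With a replication gene as the upstream neighbour, read-in was called for 1 pair, Pcna into Tmem230, in 15 of 16 libraries, and the deposited estimate was 0.695 and 0.838 in the control and 4.39 and 3.74 after 7 h of KCl, where Pcna rose.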

How the data were processed

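The series holds 16 RNA libraries and 10 of ribosome footprints, 2 to a group. The submitters' processing notes name STAR, RSEM, Bowtie and build mm10, without versions or roles; no strand setting for the counting was stated. The deposited gene tables hold the authors' expected counts, which were already whole numbers and were used for the tests. They also hold the authors' TPM, used for levels between genes and for the log2(TPM + 1) alternative. A deposited ratio-like read-in estimate per pair of neighbouring genes, with deposited readthrough and read-in calls, was used as given. Another 12 columns had no labelled sample and stayed out.

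Counts were normalised by TMM and genes with low counts removed (filterByExpr). Tests used edgeR 4.0.16 in R 4.3.3 (quasi-likelihood, Benjamini-Hochberg adjustment over all genes tested, threshold 0.05), with 1 fit for the heat RNA, 1 for the H2O2 and KCl RNA, 1 for footprints and 1 for both kinds of library, where translational efficiency was the interaction. The SE printed with an edgeR log2 change was derived from the test, as the size of that change divided by the square root of its F statistic. The scripts were tested on simulated data. Alternatives were DESeq2 1.42.0, limma 3.58.1 on log2(TPM + 1), RLE normalisation, no filter, only the groups compared and a replicate block. Each library was also left out in turn. For efficiency, limma-voom took the place of log2(TPM + 1), RLE and only the groups compared. The labels share replicate numbers, which were not taken as a pairing because same-numbered samples did not deviate together in every pair of groups. Promoter letters came from RefSeq.

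The 41 genes and the other lists were chosen with earlier results of these data known. Named in each comparison were up to 4 members with the largest rise and 4 with the largest fall among those called, any member called against most of its role, and the uncalled where 4 or fewer. From other lists up to 2 in each direction were named, with Cdkn1a, Cdkn2a and Ccnd1 throughout. Members called in footprints beyond these, and genes named for readthrough, were chosen after their values were seen.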

Additional observations from a re-analysis of the deposited data

Results flagged for a closer look

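Some members were called in opposite directions in a pair of treatments against the control, with the direct difference also called by edgeR. Values are log2 fold changes, and comparisons within a pair share a control.

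Between H2O2 and KCl at 7 h there were 6 such members. Rrm2 differed by 2.77 (1.50 with H2O2 and -1.27 with KCl), Ccne2 by 1.59 (0.61 and -0.97) and Prim1 by 1.24 (0.64 and -0.61). The other three were Rfc3 at 0.73 (0.33 and -0.39), Rfc5 at 0.57 (0.16 and -0.40) and Tyms at 0.53 (0.21 and -0.32). The call of Rfc5 after 7 h of H2O2 was lost in 8 of 10 alternatives and that of Tyms in 3. At 2 h no member was called in opposite directions by H2O2 and KCl.

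Between 7 h and 2 h of H2O2 there were 7, each below the control at 2 h and above it at 7 h: Gins3 at 0.90 (0.35 and -0.55), Gins4 at 0.50 (0.31 and -0.19), Fen1 at 0.48 (0.28 and -0.20), Pole2 at 0.47 (0.28 and -0.19), Tyms at 0.40 (0.21 and -0.19), Rfc5 at 0.38 (0.16 and -0.22) and Rpa2 at 0.35 (0.15 and -0.21). Not all of these calls held throughout. At 7 h the call was lost in 9 of 10 alternatives for Rpa2, 8 for Rfc5, 3 for Pole2, 3 for Tyms and 1 for Fen1. At 2 h it was lost in 4 for Pole2, in 2 each for Gins4, Tyms and Rfc5 and in 1 for Rpa2. Gins3 kept both.

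Between 7 h and 2 h of KCl there were 3: Gins3 at 2.11 (0.78 and -1.34), Gins4 at 0.47 (0.22 and -0.26) and Rrm2 at -1.68 (-1.27 at 7 h and 0.40 at 2 h). Gins3 kept its calls at both times with both agents in all 10 alternatives. Gins4 lost its KCl 7 h call in 2 (adjusted p up to 0.083), on log2(TPM + 1) and without the second KCl 7 h library, and its H2O2 2 h call without the second H2O2 2 h or the second control library (up to 0.106).

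Between the heat regimes there were 10. Higher at 42 °C and lower at 44 °C were Ccne1 at 0.52 (0.20 and -0.32), Pole at 0.43 (0.16 and -0.26), Pold2 at 0.33 (0.16 and -0.17) and Rrm1 at 0.28 (0.15 and -0.14). The reverse held for Fen1 at -0.80 (-0.25 and 0.54), Cdt1 at -0.52 (-0.14 and 0.38), Prim1 at -0.33 (-0.13 and 0.20), E2f1 at -0.30 (-0.13 and 0.17), Pold1 at -0.30 (-0.20 and 0.11) and Mcm7 at -0.23 (-0.10 and 0.13). On log2(TPM + 1) Pold2, Pole and Rrm1 changed sign at 42 °C, so that for these 3 the opposite directions rest on the scaling. At 44 °C the call was lost in 5 of 10 alternatives for Pold1 (adjusted p up to 0.377), 3 for Rrm1 and 2 for Mcm7. At 42 °C it was lost in 5 for Mcm7 and in 3 each for Ccne1 (up to 0.926), Cdt1, E2f1 and Prim1. Fen1 kept both calls throughout.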

How the results depend on the processing

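Of 396 recomputed counts of members called, 308 stayed within 1.5 times the main count and 88 did not, 58 of these with 1 library left out. Of 344 member calls, 232 held in every alternative, among them 31 of 37 at 44 °C, 21 of 25 after 7 h of KCl and 28 of 33 for H2O2 against KCl at 7 h, but 9 of 25 at 42 °C, 2 of 10 in footprints after 7 h of H2O2 and 3 of 12 after 7 h of KCl. Of 3452 recomputed member values, 12 reversed, all at 42 °C, against either the control or 44 °C. All 12 were on log2(TPM + 1): against 44 °C Orc6 (-0.11), Rfc1 (-0.064), Lig1 (-0.04), Rrm2 (-0.08) and Tyms (-0.07), and against the control Cdc6 (-0.05), Mcm4 (-0.08), Mcm5 (-0.07), Pold2 (-0.03), Pole (-0.02), Rrm1 (-0.04) and Tyms (-0.06). The cause was not tested.

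On log2(TPM + 1) the counts that moved were 6 higher and 20 lower at 42 °C (DESeq2 gave 5 lower), 6 higher for 42 °C against 44 °C, 10 lower for H2O2 against KCl at 2 h, and in footprints 0 lower after 2 h of H2O2, 7 h of H2O2 and 2 h of KCl. DESeq2 on footprints gave 1 higher and 3 lower after 2 h of H2O2 and 0 lower after 2 h of KCl. For efficiency it gave 6 higher and 6 lower after 2 h of H2O2, 1 and 1 after 7 h, 4 higher after 2 h of KCl, and 2 and 2 after 7 h. Without the filter on low counts 1 was lower for H2O2 at 7 h against 2 h, 2 in footprints after 2 h of H2O2, and efficiency calls after KCl were 0. With only the groups compared, footprint falls were 0 after 2 h of either agent, and RLE gave 0 for KCl.

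With 1 library left out, RNA counts ranged at 42 °C from 11 to 17 higher and 4 to 7 lower, after 2 h of H2O2 from 11 to 22 lower, after 7 h of H2O2 from 15 to 20 higher and 1 to 4 lower, for 7 h against 2 h of H2O2 at 1 lower in each, and for H2O2 against KCl at 2 h from 10 to 20 lower. In footprints they ranged from 0 to 1 lower after 2 h of H2O2, 2 to 5 higher and 0 to 1 lower after 7 h, 1 to 2 higher and 0 lower after 2 h of KCl, and 2 to 3 higher and 3 to 5 lower after 7 h. For efficiency the ranges were 0 to 4 higher and 2 to 5 lower after 2 h of H2O2, 0 to 1 lower after 7 h, 0 to 3 higher after 2 h of KCl, and 0 to 1 higher and 0 to 1 lower after 7 h. With 1 library left in a group, that library is assumed to vary like the others.

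Deviations of samples with the same replicate number correlated at -0.05 to 0.12 in RNA. In footprints the correlations were 0.20 to 0.42 among the control, H2O2 7 h and both KCl groups, and -0.38 to -0.05 between these and H2O2 2 h. Not every pair was above 0.1, so the number was not used as a pairing. With the replicate block, footprint falls were 2 after 2 h of H2O2 and 0 after 2 h of KCl, efficiency rises after 2 h of H2O2 were 2, and after 7 h of KCl 1 was higher and 2 lower in efficiency. RLE normalisation, log2(TPM + 1) and only the groups compared were not run for efficiency, where limma-voom was run instead. No row used an older symbol of a member. Footprint libraries held 1460751 to 5168537 counts, fewer than any RNA library, and the part of depth in their fewer calls was not tested.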
